A study of Homo sapiens with 25 samples.

Results

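The 10 genes for the histone variant H2A.Z and the proteins that place it in chromatin or remove it were followed across 4 groups of RNA libraries. They are H2AZ1 and H2AZ2, which encode the variant, the SRCAP complex genes SRCAP, VPS72, ZNHIT1 and YEATS4, the shared subunit genes RUVBL1, RUVBL2 and ACTL6A, and ANP32E. They were chosen by name for their role and not by a rule on their values, although earlier results of these data were known. They were read by NCBI Gene number from a table of 28395 genes. All 10 passed the filter on low counts, which left 14658 genes for testing.

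The cells were A549, an established human lung carcinoma line, with the degron tag mAID on TRRAP, a large scaffold protein of the TIP60 and SAGA histone acetyltransferase complexes. The series title concerns TRRAP, mitotic transcription by MMB (the MuvB core bound by B-MYB) and sensitivity to CHK1 inhibition. Every group carried the tag and went through 20 h in 2 mM thymidine and a 4 h release, which the design text calls S-phase synchronization. The groups were both drugs, 5-Ph-IAA (1 µM for 6 h, to degrade tagged TRRAP), prexasertib (a CHK1 inhibitor, for 3 h) and DMSO, with 3 libraries each, numbered 1 to 3. No prexasertib dose is used, because the labels of the RNA and chromatin samples give different units. The RNA labels give the genotype as WT although the growth protocol names the tagged cells, so the grouping follows the titles. The labels do not say whether the tagged line is a single clone, whether libraries came from separate cultures, or which ligase subunit the degron relies on. No untagged cells given 5-Ph-IAA were analysed here, so effects of the compound itself and of TRRAP loss cannot be told apart. P-values measure only the spread between these libraries, which may be technical.

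H2A.Z replaces ordinary H2A in nucleosomes that flank transcription start sites, and at enhancers and centromeres. SRCAP, an ATP-driven remodeller, exchanges H2A for H2A.Z, and the TIP60-EP400 complex, of which TRRAP is a subunit, shares several of its parts and can do the same. ANP32E is a chaperone that binds H2A.Z and takes it out of nucleosomes.

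Total counts ran from 10830048 to 17789482 per library. The 10 genes had 193 to 6425 counts per gene and library and together held 0.115% to 0.149% of a library's counts. Levels are CPM, counts scaled to a common library total, on library sizes adjusted by TMM, edgeR's trimmed mean of M-values, with mean ± SD over 3 libraries. Libraries numbered 3 stood apart in every group. A chi-square per degree of freedom of 13.0 to 19.5 separated them from the libraries numbered 1 and 2, which differed from each other by 2.24 to 3.97. The epithelial markers KRT8 (mean 3251 CPM by library size), KRT18 (2114 CPM) and CDH1 (98.8 CPM) were expressed, as were AKR1C3 and AKR1B10, while EPCAM (0.807 CPM) and KRT19 (4.24 CPM) were low. The blood markers PTPRC and CD3E and the endothelial marker PECAM1 were at or below 0.0717 CPM on average. Other markers of such cell types were detected. They were the blood marker CD68 (30.6 CPM), the fibroblast marker COL1A1 (31.8 CPM) and the neuronal markers SNAP25 (48.4 CPM), SYT1 (8.96 CPM) and RBFOX3 (6.23 CPM). The endothelial marker VWF and the fibroblast marker COL3A1 were below 0.75 CPM on average. In bulk RNA, fewer cells that express a gene and less of its RNA per cell cannot be told apart.

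With 5-Ph-IAA alone, 4 of the 10 mRNAs fell. ANP32E fell furthest, to less than the level of any DMSO or prexasertib library, and H2AZ1, H2AZ2 and RUVBL1 fell by smaller amounts. None rose. In edgeR's quasi-likelihood test at an adjusted p under 0.05, 12.2% of all genes tested were called lower and 9.65% higher in this comparison. The median log2 difference of the 10 was -0.20, against 0.01 over all genes, and 9 of the 10 values were negative. With prexasertib in the medium, both drugs against prexasertib gave a single call, again a lower ANP32E, where 10.4% of all genes were called lower and 7.85% higher. The median over the 10 was -0.18, with 8 negative values. DESeq2 called 4 of the 10 lower with 5-Ph-IAA, where it called 13.6% of all genes lower and 10.2% higher, and 2 lower for both drugs against prexasertib, where it called 12% lower and 8.37% higher. Without the libraries numbered 3 edgeR called 5 lower with 5-Ph-IAA, against 19.3% of all genes lower and 16.7% higher. For both drugs against prexasertib it then called 5 lower and 1 higher, against 17.4% lower and 13.1% higher. A term for the library number as a block, under which the same numbers are compared with each other, raised the calls in all genes too. With it 6 of the 10 were lower with 5-Ph-IAA, against 23.6% of all genes lower and 19% higher, and 6 were lower and 1 higher for both drugs against prexasertib, against 19.9% lower and 17.2% higher.

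**Figure D1:**
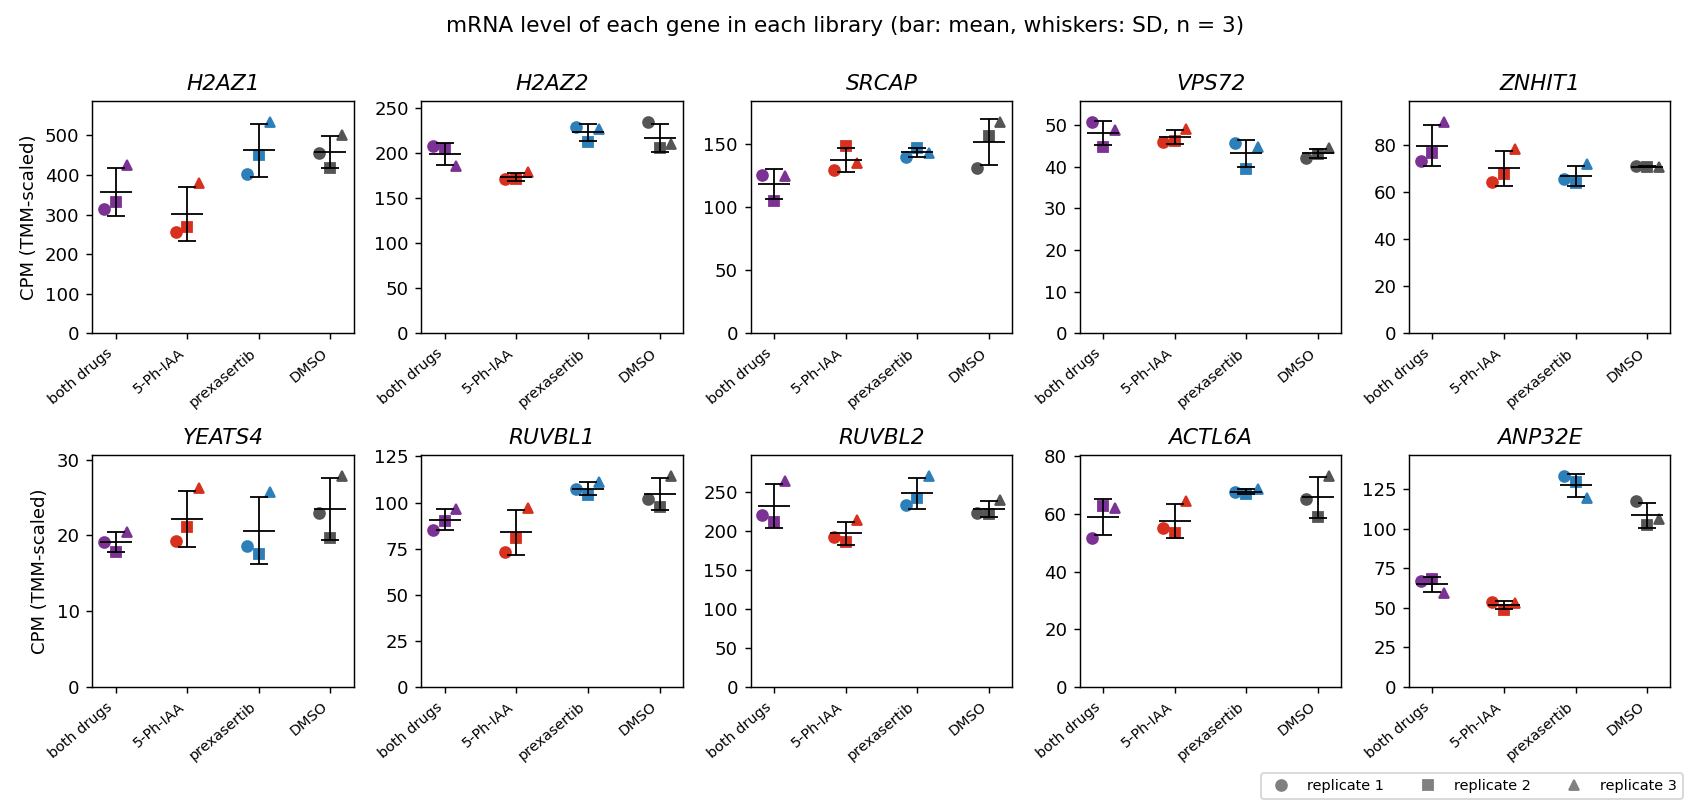
mRNA level of each of the 10 genes in every library. The y axis of each panel is CPM on TMM-scaled library sizes and starts at 0, points are single libraries with their number shown by shape, and the bar and whiskers are the mean and SD of 3 libraries. ANP32E is at 48.6 to 68.5 CPM in the libraries with 5-Ph-IAA and at 102 to 134 CPM in those without it.

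The H2A.Z genes lie on different chromosomes, H2AZ1 on chromosome 4 and H2AZ2 on chromosome 7. Their promoter windows are shown because both mRNAs fell with 5-Ph-IAA and because the MuvB core is known to bind the cell cycle homology region, TTTGAA or TTCGAA. Its target promoters often also hold CCAAT boxes, the element bound by NF-Y. The windows are RefSeq sequence of build GRCh38.p14, 250 bases before to 50 after an annotated start. Both are on the minus strand and written 5′ to 3′ along the gene, H2AZ1 from chr4:99950226-99950525 and H2AZ2 from chr7:44848038-44848337. Capitals mark exact matches to TTTGAA or to TTCGAA, and matches to CCAAT on either strand. A CCAAT match on the opposite strand reads ATTGG along the gene.
H2AZ1: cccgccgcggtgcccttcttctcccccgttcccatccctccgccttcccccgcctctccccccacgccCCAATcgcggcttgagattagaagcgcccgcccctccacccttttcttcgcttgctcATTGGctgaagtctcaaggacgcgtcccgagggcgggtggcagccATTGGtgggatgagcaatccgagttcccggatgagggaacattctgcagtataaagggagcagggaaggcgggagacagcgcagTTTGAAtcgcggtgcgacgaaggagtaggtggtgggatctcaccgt
H2AZ2: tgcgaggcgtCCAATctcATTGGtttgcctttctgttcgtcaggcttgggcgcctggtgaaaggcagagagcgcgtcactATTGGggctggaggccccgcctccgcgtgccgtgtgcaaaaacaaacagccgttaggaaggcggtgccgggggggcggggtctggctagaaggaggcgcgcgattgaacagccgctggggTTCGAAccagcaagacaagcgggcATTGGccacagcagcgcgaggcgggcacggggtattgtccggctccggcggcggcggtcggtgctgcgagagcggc

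The H2AZ1 window held TTTGAA at position 5 after the start and 3 CCAAT matches, at -182 on the gene's strand and at -125 and -80 on the other. The H2AZ2 window held TTCGAA at -50 and 4 CCAAT matches, at -240 on the gene's strand and at -232, -170 and -26 on the other. No match overlapped another. Of 35116 promoter windows of this length, searched on both strands, 15.2% held TTTGAA, 1.45% held TTCGAA, 3.26% held at least 3 CCAAT matches and 0.991% at least 4. Windows were in the table for 7 of the 10 genes, 9 in all; ACTL6A, VPS72 and ANP32E are named only. Among the others, TTTGAA was found for YEATS4 and RUVBL2, and CCAAT for ZNHIT1, RUVBL1 and RUVBL2. The RUVBL1 windows held neither TTTGAA nor TTCGAA, and RUVBL1 was called lower with 5-Ph-IAA. YEATS4 and RUVBL2 did not pass the edgeR threshold in that comparison (adjusted p = 0.770 and 0.123). SRCAP had neither. The E2F-like letters TTTGGCGC and TTTCCCGC (0.652% and 1.63% of windows) and the E-box CACGTG (7.26%) were in none of the 9. These matches describe letters only, and whether they bear on the mRNA levels was not tested.

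H2AZ1, one of the pair of genes that encode H2A.Z, stood at 255, 269.6 and 380.1 CPM in 5-Ph-IAA libraries 1 to 3, against 455, 418 and 500.1 CPM in DMSO libraries. All 3 treated libraries lay below all 3 DMSO libraries, and library 3 was the highest of its group in both. The mRNA fell by 0.60 ± 0.16 on the log2 scale (SE), that is, it fell by 34.1%, with an edgeR adjusted p of 0.0185. Within a library number the log2 differences were -0.83, -0.63 and -0.40. The call ended without DMSO library 3 (adjusted p = 0.0634) or without 5-Ph-IAA library 1 (0.0764) or 2 (0.0788).

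Under both drugs H2AZ1 was at 315, 331 and 426 CPM, and under prexasertib alone at 402, 451 and 533 CPM. The groups overlapped, but every number went the same way, with log2 differences of -0.35, -0.45 and -0.33. The log2 difference was -0.37 ± 0.16 (95% interval -0.72 to -0.02), short of the threshold at an adjusted p of 0.136. With the library number as a block it fell (adjusted p = 1.607e-06), and it also fell without the libraries numbered 3 (-0.41, adjusted p = 1.856e-06).

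H2AZ2, the paralogue that encodes a near-identical protein, stood at 171.1, 170.5 and 179 CPM in 5-Ph-IAA libraries, against 234, 205 and 209 CPM in DMSO libraries. The 5-Ph-IAA libraries lay within a narrow band beneath every library of the other groups. H2AZ2 fell by 0.32 ± 0.071 (log2, SE), that is, it fell by 19.8%, with an adjusted p of 0.00626, and stayed called with any 1 of the 12 libraries left out. Under both drugs its levels were 207, 205 and 185 CPM, against 229, 212 and 226 CPM with prexasertib. That difference was -0.16 ± 0.071 (95% interval -0.32 to -0.0087, adjusted p = 0.137), with no overlap between the groups. It fell with the block (adjusted p = 0.0162).

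The ratio of H2AZ1 counts to H2AZ2 counts does not depend on library scaling. It was 1.81 ± 0.43 with both drugs, 1.73 ± 0.34 with 5-Ph-IAA, 2.08 ± 0.30 with prexasertib and 2.12 ± 0.24 with DMSO (SD, n = 3 each). With 5-Ph-IAA it was 1.49, 1.58 and 2.13 in libraries 1 to 3, against 1.95, 2.03 and 2.39 in DMSO libraries, so the groups overlapped while each number was lower with 5-Ph-IAA. Reads that H2AZ1, H2AZ2 and RUVBL2 may share with their 9 annotated pseudogenes were not analysed here, so these counts are uncertain to that extent.

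ANP32E, which strips H2A.Z from nucleosomes, had the largest change of the 10 genes with 5-Ph-IAA. Its levels were 53.6, 48.6 and 53.0 CPM with 5-Ph-IAA, against 117, 102 and 106 CPM with DMSO. The groups were separated by a gap wider than the spread inside either. ANP32E fell by 1.07 ± 0.083 (log2, SE), that is, it fell by 52.4%, with an adjusted p of 2.189e-06, and ranked 34 of 14658 genes by p. The differences within library numbers were -1.13, -1.07 and -1.0.

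With both drugs ANP32E stood at 66.9, 68.5 and 59.4 CPM, against 134, 129 and 119.6 CPM with prexasertib. It fell by 0.97 ± 0.082 (log2, SE; adjusted p = 5.255e-06, rank 45). Against DMSO the fall with both drugs was 0.74 ± 0.082 (adjusted p = 3.726e-05). All 3 calls held with any 1 library left out, over ranges of -1.11 to -1.01, -1.02 to -0.92 and -0.79 to -0.68, and with library size as the only scaling.

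ANP32E values with prexasertib lay the other way and were smaller differences that missed the edgeR threshold. Prexasertib libraries were all above DMSO libraries, with a log2 difference of 0.23 ± 0.081 (95% interval 0.057 to 0.405) and an adjusted p of 0.136. Both-drug libraries were all above 5-Ph-IAA libraries, by 0.33 ± 0.083 (95% interval 0.15 to 0.51, adjusted p = 0.055). The value was higher in 3 of 3 library numbers in both comparisons. With the library number as a block both passed the threshold (adjusted p = 0.00573 and 0.000343), and DESeq2 called the second (0.00999). In order from high to low the groups were prexasertib, DMSO, both drugs and 5-Ph-IAA, with means of 128 ± 7.19, 109 ± 7.79, 65.0 ± 4.85 and 51.7 ± 2.71 CPM. The first pair and the last pair of this order did not pass the edgeR threshold.

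SRCAP, the ATPase that drives H2A.Z exchange, was at 129, 148 and 134 CPM with 5-Ph-IAA, against 131, 156 and 167 CPM with DMSO. The groups overlapped, and the log2 difference was -0.14 ± 0.096 (95% interval -0.35 to 0.064, adjusted p = 0.322). Both drugs together gave 125, 105 and 125 CPM, below every library of the other groups. Against DMSO, SRCAP fell by 0.36 ± 0.096 (log2, SE), that is, it fell by 21.8%, with an adjusted p of 0.0151. This call ended without DMSO library 3 (adjusted p = 0.0632) or without both-drug library 2 (0.0736). Against prexasertib (139, 147 and 143 CPM) the difference was -0.27 ± 0.096 with an adjusted p of 0.0648, and it passed with the block (0.00504) and in DESeq2 (0.045).

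VPS72, the subunit known as YL1 that holds the H2A.Z-H2B dimer, and ZNHIT1, a zinc-finger subunit specific to SRCAP, were not called in any of the comparisons. VPS72 averaged 48.1 ± 2.97 CPM with both drugs, 47.1 ± 1.73 with 5-Ph-IAA, 43.2 ± 3.25 with prexasertib and 43.2 ± 1.12 with DMSO. Its 5-Ph-IAA libraries (46.0 to 49.1 CPM) lay above its DMSO libraries (42.1 to 44.4 CPM), and each number was higher, by 0.13, 0.10 and 0.15, with an adjusted p of 0.310. The value was small and positive where most of the set was negative. ZNHIT1 averaged 79.5 ± 8.76 CPM with both drugs, 69.9 ± 7.38 with 5-Ph-IAA, 66.8 ± 4.24 with prexasertib and 70.5 ± 0.238 with DMSO. For both drugs against prexasertib its difference was 0.25 ± 0.095 (log2, SE; adjusted p = 0.0852), which rose with the block (0.0032). With the block ZNHIT1 was also higher with both drugs than with 5-Ph-IAA (0.0483) or DMSO (0.0374).

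YEATS4, known as GAS41 and a reader of acylated lysines on histone H3, had the smallest counts of the 10 genes and the widest intervals of the SRCAP genes. It stood at 17.8 to 20.4 CPM with both drugs, 19.2 to 26.3 with 5-Ph-IAA, 17.5 to 25.7 with prexasertib and 19.6 to 27.9 with DMSO. All 4 groups overlapped. The log2 difference of 5-Ph-IAA and DMSO was -0.084 ± 0.17 (95% interval -0.44 to 0.27). The only call on YEATS4 came with the block, a lower level with both drugs than with DMSO (-0.29, adjusted p = 0.0217).

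RUVBL1 and RUVBL2 are AAA+ ATPases that form a shared ring in SRCAP, TIP60-EP400, INO80 and the R2TP assembly chaperone. RUVBL1 was at 73.3, 80.7 and 97.2 CPM with 5-Ph-IAA, against 102, 97.7 and 114 CPM with DMSO. The groups were adjacent and did not overlap. RUVBL1 fell by 0.32 ± 0.099 (log2, SE), that is, it fell by 20.0%, with an adjusted p of 0.0326. The call was lost without DMSO library 1 (0.0598) or 3 (0.117) and without 5-Ph-IAA library 1 (0.143) or 2 (0.108). With both drugs RUVBL1 was at 85.1, 90.2 and 96.4 CPM, against 107, 104 and 111 CPM with prexasertib. This difference was -0.25 ± 0.099 (adjusted p = 0.104), and it passed with the block (0.00135). The block also called RUVBL1 lower with both drugs than with DMSO (0.00539).

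RUVBL2 was at 192, 186 and 214 CPM with 5-Ph-IAA, below the 3 DMSO libraries at 222.5, 222.2 and 239.7 CPM. The log2 difference was -0.21 ± 0.092 (95% interval -0.41 to -0.012, adjusted p = 0.123), with -0.21, -0.26 and -0.16 within the numbers. With the block RUVBL2 fell (adjusted p = 0.000864). It was higher with both drugs than with 5-Ph-IAA in every number, by 0.23 ± 0.092 (adjusted p = 0.258, and 0.00131 with the block). The RUVBL1 to RUVBL2 count ratio was 0.393 ± 0.031 with both drugs, 0.424 ± 0.038 with 5-Ph-IAA, 0.434 ± 0.025 with prexasertib and 0.458 ± 0.019 with DMSO (SD, n = 3 each), and neighbouring groups in this order overlapped.

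ACTL6A, the actin-related subunit known as BAF53A that SRCAP, TIP60-EP400, INO80 and BAF share, averaged 58.9 ± 6.28 CPM with both drugs, 57.6 ± 5.97 with 5-Ph-IAA, 67.8 ± 0.912 with prexasertib and 65.8 ± 7.16 with DMSO. Each number was lower with 5-Ph-IAA, with log2 differences of -0.25, -0.14 and -0.19 against DMSO and of -0.39, -0.09 and -0.14 when prexasertib was present. Neither difference passed (adjusted p = 0.204 and 0.200), and both did with the block (0.0273 and 0.0226). RUVBL1 and ACTL6A had the most alike profiles of any pair in the set, with a root-mean-square difference of 0.083 between their mean-centred log2 CPM over 12 libraries. VPS72 and ZNHIT1 came next at 0.113.

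Some of these genes overlap others in GRCh38.p14, and the strand setting of the counting is not given in the sources used here, so their counts are uncertain to that extent. RUVBL1 shares 6899 bases with SEC61A1 (mean count 4609) and 434 with EEFSEC, SRCAP shares 768 bases with TMEM265 and ACTL6A shares a short stretch with MRPL47. No such protein-coding neighbour was found for H2AZ1, H2AZ2 or ANP32E.

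**Figure D2:**
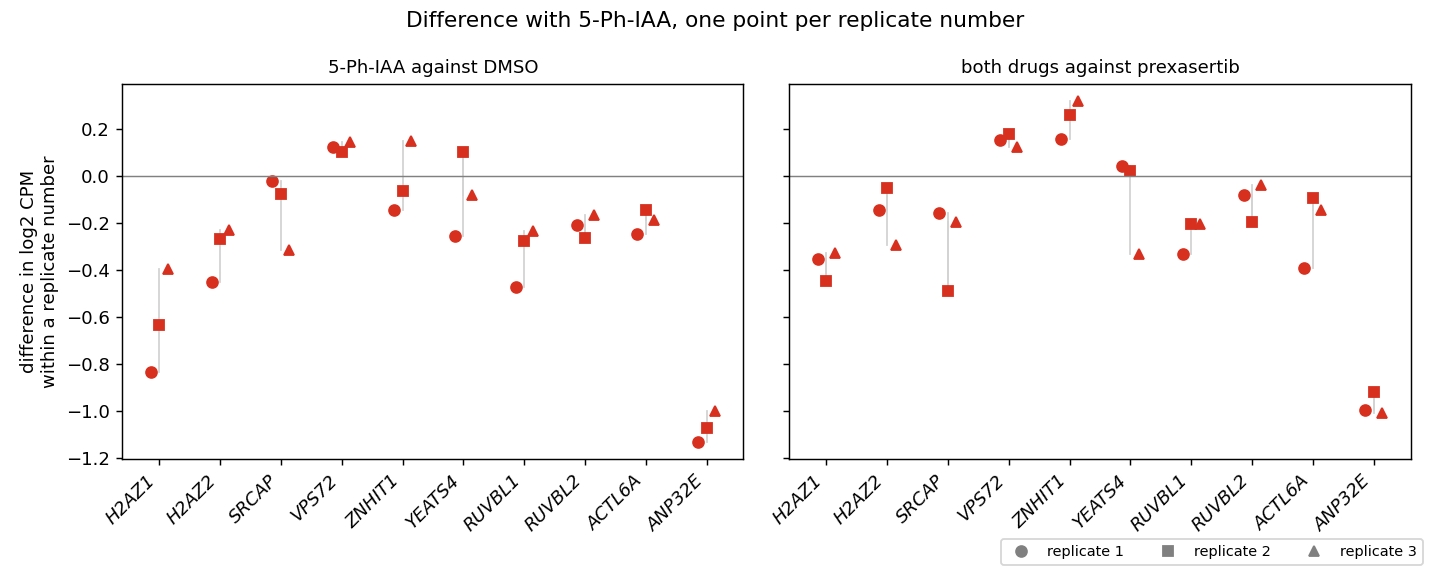
Difference made by 5-Ph-IAA within each library number, without prexasertib (left) and with it (right). The y axis is the difference in log2 CPM and each point is 1 pair of same-numbered libraries. ANP32E is lower in every pair, by -0.92 to -1.13, and H2AZ1, H2AZ2, SRCAP, RUVBL1, RUVBL2 and ACTL6A lie below 0 in all 6 pairs each. The values are TMM-scaled, and the share of all genes below 0 in all 6 pairs was not counted. By library size alone the edgeR value was above 0 for SRCAP without prexasertib (0.018) and for RUVBL2 with it (0.038).

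Prexasertib alone gave no call among the 10. In edgeR 2.36% of all genes were called higher and 2.37% lower against DMSO, and 1 of the 10 had an unadjusted p under 0.05 (ANP32E), as did 2571 of all genes, with 0 calls by DESeq2 and limma-voom. With the block ANP32E was the 1 call, against 8.37% of all genes higher and 9.77% lower. The intervals bound what could have been missed: the difference of H2AZ1 was 0.014 on the log2 scale (95% interval -0.33 to 0.36), that of H2AZ2 0.041 (-0.11 to 0.19) and that of SRCAP -0.081 (-0.29 to 0.13). Adding prexasertib to 5-Ph-IAA gave 0 calls in edgeR and in limma-voom, against 1.17% of genes called higher and 1.26% lower. Here 8 of the 10 values were positive with a median of 0.15, 4 genes had an unadjusted p under 0.05, as did 2023 of all 14658 genes, and DESeq2 called ANP32E alone, where it called 2.36% of all genes higher and 2.61% lower. H2AZ2 was higher with both drugs than with 5-Ph-IAA in all libraries, by 0.20 ± 0.071 (adjusted p = 0.206). With the block H2AZ1 (0.00186) and H2AZ2 (0.00959) were called higher, as were ZNHIT1, RUVBL2 and ANP32E, 5 of the 10 against 7.8% of all genes higher and 7.7% lower.

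Both drugs against DMSO gave 2 falls among the 10, SRCAP and ANP32E, where 14.2% of all genes were called lower and 11.8% higher. H2AZ1 did not pass (log2 difference -0.36 ± 0.16, adjusted p = 0.125), and it passed with the block (1.518e-06). The block gave 5 lower and 1 higher among the 10, against 23.5% of all genes lower and 21.2% higher. The difference of H2AZ2 was -0.12 ± 0.071 (adjusted p = 0.241). These comparisons share groups, so their values are not independent of each other. The interaction, which asks whether the log2 effect of 5-Ph-IAA differs with prexasertib present, called 0 of the 10 and 0% of all genes, and none of the 10 had an unadjusted p under 0.05 (519 of all genes did). DESeq2 and limma-voom gave 0 calls among the 10 as well. For H2AZ1 the interaction was 0.23 ± 0.23 (95% interval -0.26 to 0.72), for ZNHIT1 0.26 ± 0.13 (-0.025 to 0.55) and for ANP32E 0.098 ± 0.12 (-0.15 to 0.35).

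**Figure D3:**
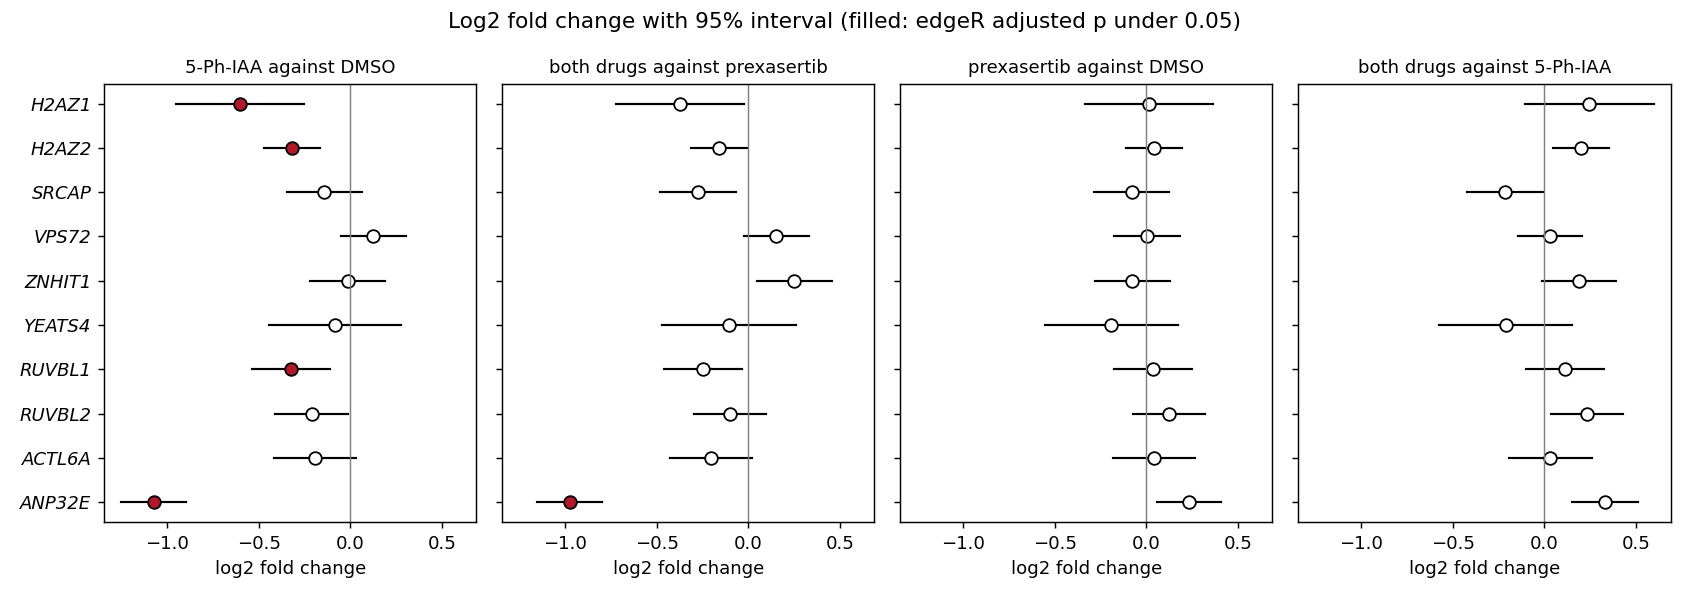
Log2 fold changes of the 10 genes in 4 comparisons. Points are edgeR estimates, lines are 95% intervals and filled points passed an adjusted p of 0.05. Calls are seen only in the 2 panels on the effect of 5-Ph-IAA, where ANP32E is at -1.07 and -0.97.

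Scaling bears on the smaller values. The TMM factors of all 6 libraries with 5-Ph-IAA (1.02 to 1.095) exceeded those of the 6 libraries lacking it (0.925 to 0.978). When libraries were scaled by size alone the median of all genes moved to 0.164 for 5-Ph-IAA against DMSO, to 0.154 for both drugs against prexasertib and to 0.114 for both drugs against DMSO. Calls over all genes then were mostly higher, where TMM had them mostly lower: 20.6% higher and 6.73% lower, 17.5% higher and 6.06% lower, and 18.4% higher and 9.81% lower in that order of comparisons. On that scale H2AZ1 and ANP32E stayed called lower with 5-Ph-IAA, while H2AZ2 (-0.16, adjusted p = 0.108) and RUVBL1 (-0.17, 0.163) lost their calls, and so did SRCAP with both drugs against DMSO (0.0653). VPS72 was then called higher in all 3 comparisons (0.28, 0.29 and 0.26) and ZNHIT1 with both drugs against prexasertib (0.39) and DMSO (0.28). VPS72 is also a TIP60-EP400 gene and is counted again in the rises of that list by library size.

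Genes of these complexes, some of them among the 10, both rose and fell with 5-Ph-IAA. Of the 2 further SRCAP subunits, DMAP1 rose, at 41.2 ± 1.54 CPM with 5-Ph-IAA against 28.5 ± 2.87 CPM with DMSO (log2 0.53 ± 0.11, adjusted p = 0.00315), and ACTR6 did not pass (0.044, adjusted p = 0.851). Of 17 TIP60-EP400 genes, which include 5 of the 10, 2 rose and 3 fell, with a median of -0.04. Scaled by library size alone 6 rose and 2 fell, with a median of 0.12. TRRAP (0.67 ± 0.14, adjusted p = 0.00418) and DMAP1 rose. BRD8, a bromodomain subunit (-0.52 ± 0.084, adjusted p = 0.000697), MORF4L1, a chromodomain subunit (-0.37 ± 0.075, 0.00384), and RUVBL1 fell. KAT5, the acetyltransferase TIP60 itself, was at 41.3 ± 2.79 CPM with 5-Ph-IAA and 34.9 ± 3.59 CPM with DMSO (0.24 ± 0.11, adjusted p = 0.133, and 0.0147 with the block). Of 15 INO80 genes, which include RUVBL1, RUVBL2 and ACTL6A, 1 rose (NFRKB, 0.43, adjusted p = 0.0044) and 3 fell, with a median of 0.01. YY1 (-0.37, 0.00469) and RUVBL1 were first by p among the falls, and this RUVBL1 fall is the one already counted. By library size 2 INO80 genes rose and 0 fell, with a median of 0.17, and YY1 lost its call (adjusted p = 0.0648).

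The partners of the RUVBL ATPases in R2TP and TTT, which assemble large complexes and PIKK-family proteins such as TRRAP, gave 3 rises and 2 falls among 17 genes in the same comparison. RPAP3, the R2TP scaffold (0.44, adjusted p = 0.00495), and TTI2, a TTT subunit (0.48, 0.00754), rose. NOPCHAP1 (-0.66, 0.0161) and PFDN2 (-0.30, 0.023) fell. The median of the 17 was -0.12. By library size 4 rose and 1 fell, with a median of 0.04, and PFDN2 lost its call (0.205). Of 16 tested BAF partners of ACTL6A, 1 rose (SMARCB1, 0.37, adjusted p = 0.0316) and 3 fell, among them SMARCC1 (-0.48, 0.000789) and ARID1A (-0.47, 0.00485), with a median of 0.03. By library size 7 BAF partners rose and 2 fell, with a median of 0.19. With the block 3 rose and 5 fell of 17 TIP60-EP400 genes, and 2 rose and 5 fell of 15 INO80 genes. Of 17 RUVBL partners 3 rose and 7 fell, and of 16 BAF partners 4 rose and 3 fell. The block called 19% of all genes higher and 23.6% lower in this comparison.

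Histone and chaperone relatives of the set were counted in the same way. Of 4 other H2A variants, 3 fell and 0 rose with 5-Ph-IAA, with a median of -0.47. H2AX, the variant phosphorylated at DNA breaks, was at 92.5 ± 6.86 CPM with 5-Ph-IAA against 225 ± 17.0 CPM with DMSO (-1.28 ± 0.088, adjusted p = 9.883e-07). MACROH2A2 (-0.66, 8.166e-05) and MACROH2A1 (-0.21, 0.0243) fell by less, and H2AJ did not pass (-0.27, 0.0808). With the block H2AJ fell too (0.000101), so that 4 of 4 did, and by library size 2 of the 4 fell. Both relatives of ANP32E fell: ANP32A was at 137 ± 8.18 CPM against 239.5 ± 13.2 CPM with DMSO (-0.81 ± 0.069, adjusted p = 4.397e-06), and ANP32B at 157 ± 11.2 CPM against 269 ± 17.3 CPM (-0.78 ± 0.086, 4.286e-05). Of 9 H2A.Z readers and chaperones, NAP1L4, a histone chaperone (-0.31, adjusted p = 0.00566), and PWWP2B, a paralogue of the H2A.Z reader PWWP2A (-0.62, 0.0301), fell. Of the same 9, 1 rose, and its values are not reported here. The median of the 9 was -0.23. By library size it was -0.07 and 0 of the 9 fell, NAP1L4 at an adjusted p of 0.109 and PWWP2B at 0.0626. With the block 6 of the 9 fell and 1 rose, and by library size 1 rose too.

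**Figure D4:**
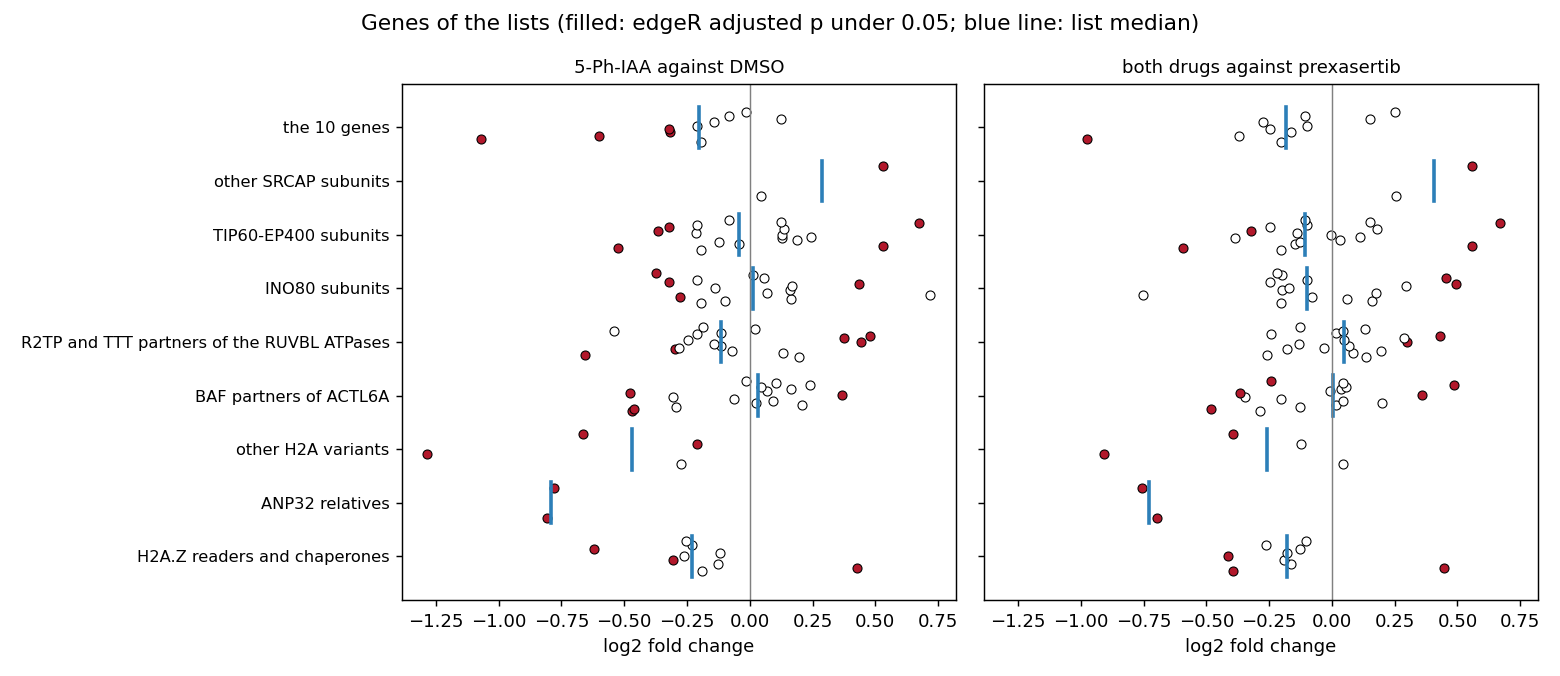
Log2 fold changes of the 10 genes and of the 8 lists of related genes for 5-Ph-IAA against DMSO (left) and both drugs against prexasertib (right). Each point is a gene, filled points passed an edgeR adjusted p of 0.05, and the blue line is the median of the list. The medians of the ANP32 relatives are -0.79 and -0.73, and those of the other H2A variants -0.47 and -0.26.

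The same lists were counted with prexasertib present, for both drugs against prexasertib. DMAP1 (0.56, adjusted p = 0.00259) and TRRAP (0.67, 0.00541) rose, and BRD8 (-0.59, 0.000329) and MORF4L1 (-0.32, 0.00969) fell, 2 and 2 of 17 TIP60-EP400 genes, with KAT5 at 0.11 (0.530). Of 15 INO80 genes, NFRKB (0.49, 0.0025) and TFPT (0.45, 0.035) rose and 0 fell, while with the block 3 rose and 5 fell. Among 17 RUVBL partners TTI2 (0.43, 0.0159) and RPAP3 (0.30, 0.0462) rose and 0 fell. BAF partners split into 2 rises, SMARCD3 (0.48, 0.00652) and SMARCB1 (0.36, 0.0407), and 3 falls led by SMARCC1 (-0.37, 0.0056) and ARID1B (-0.48, 0.0139). Under the block they had 2 rises and 6 falls. H2AX (-0.91 ± 0.087, 1.392e-05), MACROH2A2 (-0.39, 0.00436), ANP32A (-0.70, 1.958e-05) and ANP32B (-0.76, 5.848e-05) fell. Among the readers and chaperones BRD2 (-0.40, 0.00514) and PHF14 (-0.41, 0.00869) fell, and 1 rose. The block gave 2 rises among the SRCAP subunits, 2 rises and 4 falls for TIP60-EP400 and 1 rise and 4 falls for the readers and chaperones. Among the RUVBL partners it gave 4 rises and 1 fall. Of all genes it called 17.2% higher and 19.9% lower in this comparison. RUVBL1 and ACTL6A, already counted among the 10 genes of the set, are in its falls for both TIP60-EP400 and INO80. By library size there were 4 rises and 2 falls among TIP60-EP400 genes, 3 rises and 0 falls among INO80 genes, 4 rises and 0 falls among RUVBL partners, and 3 rises and 1 fall among BAF partners, where ARID1B lost its call (0.0702). Of the readers and chaperones 1 rose and 1 fell, and PHF14 did not pass (0.068).

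Prexasertib alone moved few of these genes. BRD8 rose, at 176 ± 17.1 CPM with prexasertib against 117 ± 5.88 CPM with DMSO (0.59 ± 0.083, adjusted p = 0.00129), and EPC2, an enhancer-of-polycomb subunit of TIP60-EP400, fell, at 18.9 ± 0.123 CPM against 25.2 ± 0.309 CPM (-0.42 ± 0.084, 0.0119). ARID1A fell as well (-0.41, 0.0331). The other lists had 0 calls in this comparison. With the block the INO80 list had 1 rise and 2 falls, the BAF list 2 falls and the H2A variants 1 fall. The RUVBL partners and the readers had 1 of each, where the block called 8.37% of all genes higher and 9.77% lower. Added to 5-Ph-IAA, prexasertib again gave a higher BRD8 (0.52, 0.00403) and a lower EPC2 (-0.57, 0.00191). H2AX rose to 125 ± 6.86 CPM with both drugs, against 92.5 ± 6.86 CPM with 5-Ph-IAA (0.43, 0.017). That call ended without 5-Ph-IAA library 1 (0.0827) or 2 (0.105) or both-drug library 1 (0.091). With the block 2 TIP60-EP400 genes, 1 INO80 gene, 3 RUVBL partners and 2 H2A variants were higher with both drugs than with 5-Ph-IAA. Lower were 1 TIP60-EP400 gene and 1 BAF gene, where the block called 7.8% of all genes higher and 7.7% lower. RUVBL2, already counted in the set, is the higher INO80 gene and is also among the higher TIP60-EP400 genes.

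Both drugs against DMSO gave rises of DMAP1 (0.62, adjusted p = 0.000925), TRRAP (0.51, 0.0161, and 0.0603 with the block) and KAT5 (0.32, 0.0495) among 17 TIP60-EP400 genes, and falls of MORF4L1 (-0.42, 0.00128) and EPC2 (-0.38, 0.00421). INO80 (-0.39, 0.00757) and YY1 (-0.31, 0.0106) fell among 15 INO80 genes. Of the RUVBL partners TTI2 (0.47, 0.00735) and TTI1 (0.30, 0.0484) rose, and ZNHIT2 (-0.78, 0.0204) and ZNHIT6 (-0.35, 0.0324) fell. Of 16 BAF partners 2 rose, SMARCB1 (0.49, 0.00583) and SMARCD3 (0.34, 0.0308), and 4 fell, led by ARID1A (-0.70, 0.000296) and SMARCC1 (-0.53, 0.00033). H2AX (-0.85, 2.175e-05), MACROH2A2 (-0.66, 7.675e-05) and MACROH2A1 fell, as did ANP32A (-0.84, 5.01e-06) and ANP32B (-0.70, 8.238e-05). Of the readers and chaperones 1 rose and 3 fell, the falls led by NAP1L4 (-0.29, 0.0069) and PWWP2B (-0.67, 0.0187). The block gave 2 rises among the SRCAP subunits, 2 rises and 4 falls among TIP60-EP400 genes and 2 rises and 3 falls among INO80 genes. It gave 4 rises and 4 falls among RUVBL partners, 4 rises and 4 falls among BAF partners and 1 rise and 6 falls among readers and chaperones. Of all genes it called 21.2% higher and 23.5% lower. RUVBL1 is in its falls for both TIP60-EP400 and INO80, and YEATS4 in those for TIP60-EP400. Both were already counted in the set. By library size there were 5 rises and 2 falls among TIP60-EP400 genes and 2 rises and 1 fall among INO80 genes. RUVBL partners then had 3 rises and 1 fall, and BAF partners 5 rises and 4 falls. Of the H2A variants 2 fell, and of the readers and chaperones 1 rose and 1 fell. YY1 (0.069), ZNHIT6 (0.087) and NAP1L4 (0.0525) lost their calls on that scale. No list gene was called in the interaction by edgeR, and with the block 2 of the 4 H2A variants were higher, against 0.375% of all genes higher and 0.28% lower.

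Some of these calls were lost under other settings. For both drugs against prexasertib, RPAP3 did not pass with RLE scaling (0.0505), no low-count filter (0.0574) or limma-voom (0.0508). For both drugs against DMSO, TTI1 was lost with no low-count filter (0.0668) or limma-voom (0.0532). KAT5 (0.0786) and SMARCD3 (0.0605) were lost there with no low-count filter. Several of the calls also rested on single libraries, and the adjusted p-values without them follow. For 5-Ph-IAA against DMSO, SMARCB1 was lost without DMSO library 1 (0.0893) or 2 (0.107) or 5-Ph-IAA library 1 (0.0664) or 3 (0.0996), NOPCHAP1 without DMSO library 3 (0.0533) or 5-Ph-IAA library 1 (0.0701), PFDN2 without DMSO library 1 (0.0859) or 5-Ph-IAA library 1 (0.0711) or 2 (0.0955), and PWWP2B without DMSO library 3 (0.126) or 5-Ph-IAA library 1 (0.104) or 2 (0.128). For both drugs against prexasertib, ARID1B was lost without prexasertib library 2 (0.058) or both-drug library 2 (0.065), TTI2 without prexasertib library 2 (0.0656) or both-drug library 3 (0.0594), and TFPT without prexasertib library 1 (0.146) or 2 (0.084) or both-drug library 2 (0.0763) or 3 (0.138). In that comparison SMARCB1 was lost without DMSO library 1 or 2, prexasertib library 1 or 2, 5-Ph-IAA library 1 or both-drug library 1 or 3 (0.0514 to 0.165), and RPAP3 without prexasertib library 2 or 3, 5-Ph-IAA library 1 or 2 or any both-drug library (0.0619 to 0.176). For prexasertib against DMSO, ARID1A was lost without DMSO library 1 or 3, any prexasertib library, 5-Ph-IAA library 1 or both-drug library 1 (0.0501 to 0.126), and EPC2 without prexasertib library 1 (0.0519). For both drugs against DMSO, TRRAP was lost without DMSO library 1 (0.0613) or 2 (0.0647) or both-drug library 3 (0.0569), PWWP2B without DMSO library 3 (0.0826) or both-drug library 1 (0.0671) or 2 (0.069), ZNHIT2 without DMSO library 3 (0.0652) or both-drug library 1 (0.0867) or 2 (0.0565), and ZNHIT6 without any DMSO library or both-drug library 1 (0.0548 to 0.137). In the same comparison KAT5 was lost without library 1 or 2 of DMSO, prexasertib or 5-Ph-IAA or both-drug library 1 or 3 (0.055 to 0.191), TTI1 without any DMSO library, prexasertib library 2, 5-Ph-IAA library 1 or 2 or both-drug library 2 or 3 (0.0527 to 0.167), and SMARCD3 without DMSO library 1 or 3 or both-drug library 1 or 2 (0.0566 to 0.132).

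The genes with profiles nearest to 5 of the set were found over the 12 libraries as the smallest root-mean-square difference of mean-centred log2 CPM among 12549 genes. For ANP32E they were SFN (0.093), NUSAP1 (0.12) and SNHG16 (0.12), against a median of 0.566 over all candidates. NUSAP1 is a spindle microtubule protein and SFN encodes 14-3-3 sigma. For H2AZ1 they were DTYMK (0.072), the thymidylate kinase, MRPS12 (0.078) and TBRG4 (0.079), against a median of 0.377. For H2AZ2 they were TPM2 (0.041), ZFYVE21 (0.053) and EIF2B4 (0.059), for RUVBL1 ETF1 (0.047), RPL7L1 (0.053) and NGRN (0.055), and for SRCAP PRRC1 (0.067), ZNF142 (0.077) and ABI2 (0.078). All share the same libraries, so these distances are a description.

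Across the 12 libraries ANP32E had the widest range, 1.46 on the log2 scale, with an SD of 0.611 between group means and 0.0936 within groups. H2AZ1 followed with a range of 1.06 and SDs of 0.305 and 0.229. For YEATS4, ZNHIT1 and ACTL6A the SD within groups (0.231, 0.117 and 0.133) was larger than that between group means (0.124, 0.106 and 0.118). Libraries numbered 3 were the highest of their group in 4 of 4 groups for H2AZ1, YEATS4, RUVBL1 and RUVBL2, and in 0 of 4 for ANP32E. What sets these libraries apart is not given in the labels, and their part in the values was not tested beyond leaving them out.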

How the data were processed

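Poly(A) RNA was sequenced as directional libraries, per the labels' protocols. The authors deposited raw counts per gene, whole numbers with no normalization, for 12 libraries in 4 groups of 3. Named in the submitters' processing notes are featureCounts 2.0.8, build hg38 and limma 3.58.1. Aligner, annotation and strand setting are not given in the sources. Of 28395 gene numbers, 27745 matched the RefSeq gene table of GRCh38.p14. The 13 CUT&RUN samples were not analysed here.

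Counts were fitted with edgeR 4.0.16 in R 4.3.3. The low-count filter filterByExpr (minimum count 10, minimum total 15) kept 14658 genes with 99.92% of the counts, scaling was by TMM, and a robust quasi-likelihood fit had a term per group over the 12 libraries. Benjamini-Hochberg adjustment covered every gene tested, with calls under 0.05. Unless another tool or the block is named, adjusted p-values come from this test. The SE is the size of the log2 fold change divided by the square root of F, intervals are 95%, log2 CPM used a prior count of 2 and the biological coefficient of variation was 12.8%. Total counts were 10830048 to 17789482 per library. The script was tested on simulated counts.

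All 10 genes are named. Of each of the 8 lists the 2 called genes with the smallest adjusted p in each direction are named, plus TRRAP, DMAP1 and KAT5, and ACTR6, H2AJ and MACROH2A1 were added after their values were seen. The values of 1 list gene are not reported here. The genes and lists were chosen with earlier results of these data known. The alternatives were RLE scaling, library size alone, no filter, a filter of 1 CPM in every library, DESeq2 1.42.0, limma-voom (limma 3.58.1), the library number as a block, no libraries numbered 3, and each library left out. The block pairs libraries by the replicate number in their titles. Deviations from the group means correlated at 0.22 to 0.633 in all 18 same-numbered pairs of libraries (mean 0.392). Pairs of different numbers ran from -0.503 to 0.366 (mean -0.181), so the ranges overlapped. Same-numbered pairs gave 0.22 to 0.348 for number 1, 0.261 to 0.402 for number 2 and 0.531 to 0.633 for number 3. Deviations cancel within a group, which pushes the values for different numbers down, so these correlations do not establish the pairing.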

Additional observations from a re-analysis of the deposited data

How the results depend on the processing

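Spread limits the smaller values: the SEs of the 10 genes were 0.071 to 0.17 on the log2 scale in comparisons of 2 groups, with 193 or more counts behind each value. In the results on single genes of the set, RLE scaling and DESeq2 reversed no direction. Reversals of direction were all in values that were not called. With library size as the only scaling these were SRCAP (0.018), ZNHIT1 (0.14) and YEATS4 (0.073) for 5-Ph-IAA against DMSO, YEATS4 (0.035) and RUVBL2 (0.038) for both drugs against prexasertib, H2AZ1 (-0.021) and VPS72 (-0.034) for prexasertib, and VPS72 (-0.023) and ACTL6A (-0.0196) for both drugs against 5-Ph-IAA. Without the libraries numbered 3 they were YEATS4 (0.03002) for both drugs against prexasertib, H2AZ1 (-0.0302) and SRCAP (0.00051) for prexasertib, RUVBL2 (-0.045) for both drugs against DMSO and YEATS4 (0.091) in the interaction. The filter of 1 CPM in every library reversed ZNHIT1 for 5-Ph-IAA (0.011), no filter reversed VPS72 for prexasertib (-0.0077) and limma-voom reversed YEATS4 in the interaction (0.011).

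With 1 library left out, ranges crossed 0 for ZNHIT1 (-0.10 to 0.043) and YEATS4 (-0.22 to 0.054) with 5-Ph-IAA against DMSO, YEATS4 (-0.21 to 0.077) with both drugs against prexasertib, H2AZ1 (-0.097 to 0.11), VPS72 (-0.031 to 0.063), RUVBL1 (-0.0103 to 0.11) and ACTL6A (-0.031 to 0.13) with prexasertib, VPS72 (-0.0096 to 0.077) and ACTL6A (-0.021 to 0.12) with both drugs against 5-Ph-IAA, RUVBL2 (-0.074 to 0.083) with both drugs against DMSO, and VPS72 (-0.032 to 0.075), YEATS4 (-0.16 to 0.15), RUVBL1 (-0.0098 to 0.20), RUVBL2 (-0.0085 to 0.17) and ACTL6A (-0.094 to 0.078) in the interaction.

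Counts of calls among the 10 moved as follows. With library size alone, 5-Ph-IAA against DMSO gave 1 higher and 2 lower. Both drugs against prexasertib and both drugs against DMSO each gave 2 higher and 1 lower on that scale. With the library number as a block, both drugs against prexasertib gave 1 higher and 6 lower, prexasertib 1 higher, both drugs against 5-Ph-IAA 5 higher, and both drugs against DMSO 1 higher and 5 lower. Without the libraries numbered 3 the counts were 1 higher and 5 lower, 1 higher, 4 higher and 1 lower, and 4 lower in those comparisons. For both drugs against prexasertib that fit called 13.1% of all genes higher and 17.4% lower. Its shares over all genes in the other comparisons named here were not counted, so those counts cannot be set against them. DESeq2 gave 2 lower for both drugs against prexasertib and 1 higher for both drugs against 5-Ph-IAA, as did RLE scaling for the second. With 1 library left out, the counts lower were 2 to 4 for 5-Ph-IAA against DMSO, 1 to 2 for both drugs against prexasertib and 1 to 3 for both drugs against DMSO, and the count higher was 0 to 1 for both drugs against 5-Ph-IAA. Shares over all genes were not counted for the fits with 1 library left out or with RLE scaling, so these counts cannot be set against them. The block changed no other call on the 10 genes than those given above. The cause of these changes was not tested.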
